A study of Mus musculus with 15 samples.

Results

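Within the memory cocktail culture of this study, CD44+ T cells were sorted by a single further surface protein, CD62L, and the libraries of the CD62L+ fraction were compared with those of the CD62L- fraction. These are 6 of the 15 RNA-seq libraries of the series, 3 for each of the 2 fractions, chosen by their labels and not by any measured value. Both fractions came from CD8 T cells of OT-I mice, whose transgenic T cell receptor recognises the ovalbumin peptide SIINFEKL. The cells were mixed with dendritic cells that had been grown from bone marrow and loaded with that peptide, and were cultured for 14 days, with 1 passage, in medium that held the cytokines IL-7 and IL-21 together with the small molecules TWS119 and 2-deoxyglucose. 2-deoxyglucose is a glucose analogue that blocks glycolysis, and TWS119 inhibits the kinase GSK-3 and so raises Wnt and beta-catenin signalling. The 3 other sorted populations, used here for their levels, were cocktail CD44loCD62L+ cells, CD44+CD62L- cells of a parallel culture of the same length with IL-2 in place of the cocktail, and naive OT-I cells, which were not cultured. The naive cells are CD44-CD62L+ in the text on the design and CD44loCD62L+ in the sample records.

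CD62L is the adhesion molecule with which lymphocytes enter lymph nodes through high endothelial venules. Among antigen-experienced CD8 T cells, those that keep CD62L and the chemokine receptor CCR7 are called central memory cells, which recirculate through lymph nodes and divide strongly on a second encounter with antigen. Cells without them are called effector memory or effector cells, which patrol tissues and carry more cytotoxic molecules. The labels do not use these names for the sorted fractions.

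The libraries of a fraction are described as technical replicates, so the p-values here measure only how far libraries of the same sorted population differ and say nothing of other mice or other cultures. Values are FPKM, fragments scaled by transcript length and library size. Values after ± are SDs over 3 libraries unless marked as standard errors (SE). Fold changes were taken after adding 1 FPKM and going to log2, by which genes of low level appear to change less than they do. A gene was called higher or lower at a Benjamini-Hochberg adjusted p under 0.05 from limma together with a fold of at least 1.2, and "rose" and "fell" are used of called genes only, always for the CD62L+ cells relative to the CD62L- cells. Low values moved in whole-read steps: of 10237 ratios of genes up to 0.2 FPKM, 74.2% lay within 0.03 log2 units of a ratio of up to 6 reads. Evenly spread values would give 23%. The ratios of each library were first centred on their own densest point, and the evenly spread values were not. The shares are therefore not on equal terms as a test of whole-read steps. By these steps 1 read was worth 2.73% to 4.21% less FPKM in the CD62L+ libraries than in the first CD62L- library, and 0.28% and 1.1% less in the other CD62L- libraries, so the CD62L+ libraries were slightly deeper. Between 10436 and 10452 genes reached 1 FPKM in each of the 6 libraries, and the median coefficient of variation between libraries of a fraction lay between 4.24% and 4.42% at levels from 1 to 10 FPKM and between 1.90% and 1.93% at levels from 10 to 100.

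Transcript of the sort marker that both fractions share, Cd44 (chromosome 2, 102811141 to 102901665 of GRCm38), overlapped between the fractions, at 38.5, 38.7 and 39.2 FPKM in the CD62L- libraries and 37.8, 39.5 and 38.3 FPKM in the CD62L+ libraries (log2 fold change -0.01 ± 0.0261 (SE), adjusted p = 0.809).

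Of 11242 genes tested, 808 were called (7.19%), of which 534 rose (4.75%) and 274 fell (2.44%), and nearly all of these differences were small. The median fold of the called genes was 1.27 in either direction, and 93.8% of the genes that rose and 86.1% of those that fell changed by less than 1.5-fold. At a minimum of 1.5-fold, 33 genes rose (0.294%) and 38 fell (0.338%), and at 2-fold 13 genes were called in all (0.116%), 4 of them risen (0.0356%) and 9 fallen (0.0801%). Adjusted p alone was passed by 5432 genes (48.3%), 2704 higher (24.1%) and 2728 lower (24.3%), and the 3 libraries of one fraction lay entirely on one side of the other 3 for 6257 genes (55.7%), so without a fold minimum the technical replicates would separate about as many genes as they leave together. The median log2 fold change of all genes was -0.0013. The plot of fold change against level shows this narrow spread, with few genes beyond 0.5 log2 units.

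**Figure D1:**
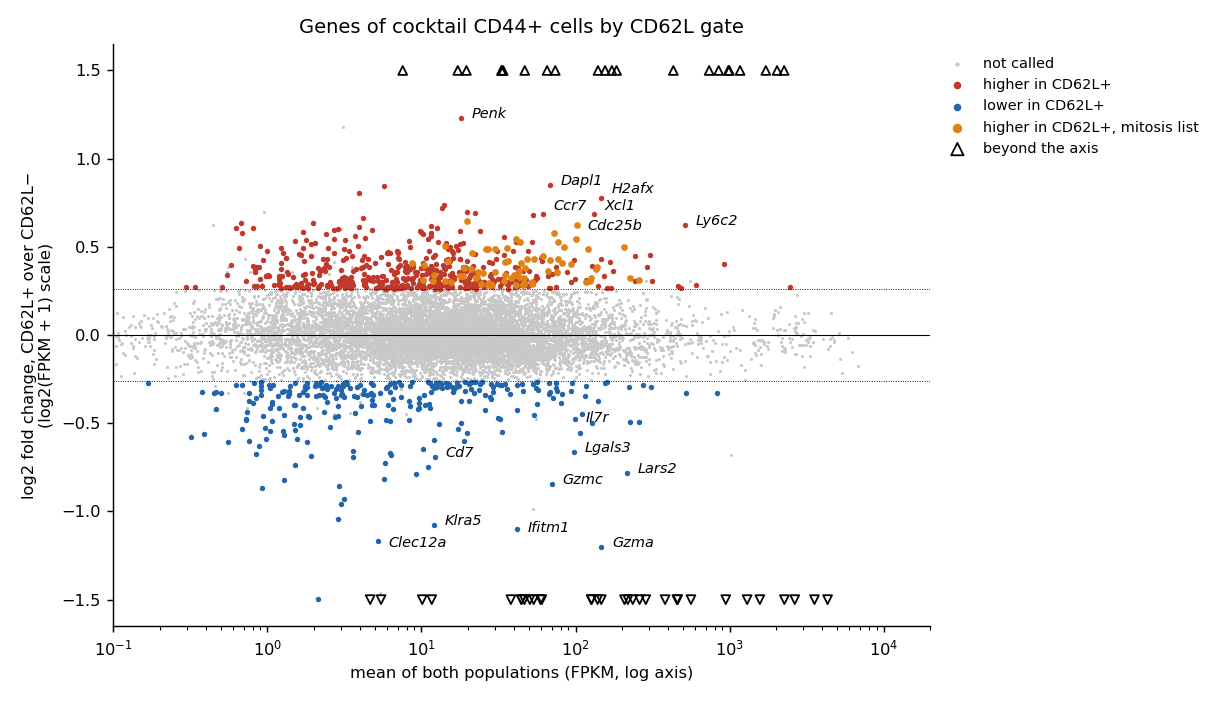
Mean FPKM of the 6 libraries on a log axis against the log2 fold change of CD62L+ over CD62L- cells, 1 point per gene; dotted lines mark a 1.2-fold change, red and blue points are genes that rose and fell, and orange points are genes of the mitosis list that rose. Open triangles mark 54 genes whose log2 fold change lies beyond 1.5 in size, 52 of them small RNA genes, and the mitosis genes form a band above the upper line.

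Of the gene lists described here, that of mitosis had the highest share of risen members. Division after DNA replication is driven by the kinase CDK1 with B-type cyclins, prepared by the kinases PLK1 and Aurora A and B, and ended when the anaphase promoting complex with its activator CDC20 marks cyclin B and securin for destruction. Of 90 mitosis genes tested, 70 rose (77.8%, against 4.75% of all genes) and 0 fell, with a median log2 fold change of 0.33. All CD62L+ libraries lay above all CD62L- libraries for 88 of the 90, against 27.7% of all genes. These 70 genes made up 13.1% of all genes that rose. The median of the list in single libraries, taken relative to the CD62L- mean, was 0.34, 0.34 and 0.34 in the CD62L+ libraries and -0.0017, 0.0025 and -0.00067 in the CD62L- libraries. In RNA of sorted bulk cells, a smaller number of cells with a transcript and less of that transcript per cell cannot be told apart.

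Promoters of genes expressed late in the cell cycle commonly carry the cell cycle homology region, TTTGAA, bound by the MuvB core of the DREAM and B-MYB complexes, together with CCAAT boxes bound by NF-Y. RefSeq promoter windows of GRCm38.p6, 250 bases before to 50 after the start, were matched to 76 of the 90 mitosis genes and to 8806 of the genes tested, and both strands were searched, with matches counted whether or not they overlapped. TTTGAA was found in 67.1% of the mitosis promoters and 12% of those of all genes tested, and CCAAT in 76.3% and 39.7%. Both were present in 56.6% and 5.16%. The E2F site TTCCCGCC was found in 3.95% of mitosis promoters and 4.49% of all. Among 43 matched promoters of the DNA replication and S phase list, TTTGAA was found in 9.30%, CCAAT in 60.5% and TTCCCGCC in 18.6%. Over all 27025 promoters of the table the shares were 18.1%, 37.9% and 2.24%. These are matches of letters in a window and were not tested for binding or use.

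The 160 bases before the start are given for 5 of 14 risen mitosis genes that were counted with both motifs there. The 5 were chosen after their values were seen, because they have the highest fold changes of these 14. The 14 were counted among promoters searched. Matched promoters cover 76 of the 90 mitosis genes, so further risen genes may have both motifs. No share over all genes was taken for this window of 160 bases, so the 14 has no background beside it. The sequences read 5′ to 3′ on the strand of the gene, with TTTGAA and CCAAT in capitals, as TTCAAA and ATTGG where the match is on the opposite strand.
Cdc20, chr4:118437344-118437503, minus strand: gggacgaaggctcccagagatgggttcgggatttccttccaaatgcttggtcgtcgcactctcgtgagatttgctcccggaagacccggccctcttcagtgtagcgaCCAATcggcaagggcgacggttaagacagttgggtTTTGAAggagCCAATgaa
Ube2c, chr2:164769769-164769928, plus strand: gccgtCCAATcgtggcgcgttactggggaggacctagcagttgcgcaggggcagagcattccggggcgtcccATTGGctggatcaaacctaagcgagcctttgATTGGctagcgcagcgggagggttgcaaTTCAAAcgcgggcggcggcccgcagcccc
Ccnf, chr17:24251410-24251569, minus strand: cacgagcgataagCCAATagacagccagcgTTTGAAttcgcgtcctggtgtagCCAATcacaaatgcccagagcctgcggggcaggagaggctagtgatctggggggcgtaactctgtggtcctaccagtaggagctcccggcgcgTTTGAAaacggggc
Ncapd2, chr6:125191587-125191746, minus strand: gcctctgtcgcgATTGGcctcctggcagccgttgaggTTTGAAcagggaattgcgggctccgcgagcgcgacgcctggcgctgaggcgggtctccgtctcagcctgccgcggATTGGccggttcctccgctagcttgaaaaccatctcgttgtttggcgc
Espl1, chr15:102296133-102296292, plus strand: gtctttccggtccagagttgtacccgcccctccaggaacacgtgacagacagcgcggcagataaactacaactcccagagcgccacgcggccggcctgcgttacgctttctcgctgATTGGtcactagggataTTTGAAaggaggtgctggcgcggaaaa
In Cdc20 the TTTGAA begins 18 bases before the start and a CCAAT 53 bases before it. The other 4 promoters show the same pair at other distances, with TTTGAA beginning 29 bases before the start in Ube2c, on the opposite strand, 14 in Ccnf, which has a further copy at 130, 123 in Ncapd2 and 27 in Espl1. Cdc20, the anaphase activator, was at 82.3, 80.6 and 81.1 FPKM in the CD62L- libraries and 118, 119 and 119.7 FPKM in the CD62L+ libraries (log2 fold change 0.54 ± 0.0519 (SE), adjusted p = 2.70e-06). Ube2c, the ubiquitin-conjugating enzyme of the anaphase promoting complex, was at 166, 173 and 174 FPKM in the CD62L- libraries and 243, 242 and 242 FPKM in the CD62L+ libraries. Espl1 encodes separase, the protease that cuts cohesin at anaphase, and went from 21.7 to 30.8 FPKM. Ccnf, a cyclin that acts in a ubiquitin ligase, went from 29.7 to 42.2 FPKM, and Ncapd2, a subunit of condensin I, from 99.6 to 140.3 FPKM. In each of the 5 genes all CD62L+ libraries lay above all CD62L- libraries.

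Members rose in each group of the list by role. Of 10 mitotic kinase genes 9 rose (90%, against 4.75% of all genes). Plk1 (chromosome 7, 122159439 to 122169873) was at 58.6, 56.5 and 57.7 FPKM in the CD62L- libraries and 87.1, 86.9 and 85.4 FPKM in the CD62L+ libraries (log2 fold change 0.58 ± 0.0251 (SE), adjusted p = 2.36e-09). Cdk1 (chromosome 10, 69335146 to 69352938) was at 45.8, 45.7 and 46.3 FPKM in the CD62L- libraries and 62.4, 60.9 and 63.3 FPKM in the CD62L+ libraries (log2 fold change 0.43 ± 0.0345 (SE), adjusted p = 5.67e-07). All CD62L+ libraries lay above all CD62L- libraries for both. Aurkb, the kinase of the chromosomal passenger complex, went from 69.4 to 98.5 FPKM, and Incenp, its scaffold, from 63.0 to 91.2 FPKM. Aurka, which acts at spindle poles, had a log2 fold change of 0.41. The kinase that did not reach the minimum fold was Pbk, at 0.26.

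Of 8 cyclins and cyclin kinase activators 5 rose (62.5%, against 4.75% of all genes). Cdc25b (chromosome 2, 131186949 to 131198497), a phosphatase that switches CDK1 on before mitosis, was at 80.3, 79.7 and 78.9 FPKM in the CD62L- libraries and 123, 124 and 123 FPKM in the CD62L+ libraries (log2 fold change 0.63 ± 0.0137 (SE), adjusted p = 3.65e-12). Ccnb1, cyclin B1, went from 65.1 to 88.1 FPKM, Ccna2, cyclin A2, from 119 to 155 FPKM and Cdc25c from 12.6 to 17.1 FPKM. Ccnb2 and the cyclin kinase subunits Cks1b and Cks2 stayed under the minimum fold at 0.20, 0.23 and 0.25. Of 7 genes of anaphase and mitotic exit 4 rose (57.1%, against 4.75%), Cdc20, Ube2c, Espl1 and Fbxo5. Pttg1, which encodes securin, the inhibitor of separase, was at 43.5, 43.9 and 45.2 FPKM in the CD62L- libraries and 39.4, 39.1 and 38.6 FPKM in the CD62L+ libraries, lower in every CD62L+ library, with a log2 fold change of -0.17 (adjusted p = 0.00215) that did not reach the minimum fold. It was the only one of the 90 with a negative value.

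Of 13 kinesins, the motor proteins of the spindle, 10 rose (76.9%, against 4.75% of all genes). All 13 had their highest level of the 5 populations in the CD62L+ cells, against 8.63% of all genes. Kif11, which pushes spindle poles apart, went from 66.6 to 85.8 FPKM and Kifc1 from 33.1 to 48.8 FPKM, though Kifc1 has a near-identical copy, Kifc5b, and their reads can be shared. Of 14 centromere and kinetochore genes 12 rose (85.7%, against 4.75%). Among them were Cenpa, the centromeric histone, from 118 to 153 FPKM, Ndc80, which grips microtubules, from 41.8 to 51.4 FPKM, and Spc24 at a log2 fold change of 0.42. Cenpk was at 0.05 (adjusted p = 0.570). Of 7 genes of chromosome condensation 3 rose (42.9%, against 4.75%). Top2a, topoisomerase II alpha, was at 229, 231 and 229 FPKM in the CD62L- libraries and 285, 284 and 286 FPKM in the CD62L+ libraries. Both transcription factors of the program rose, Foxm1 from 35.3 to 51.4 FPKM and Mybl2, which encodes B-MYB, from 18.2 to 23.8 FPKM. Mki67, the gene of the proliferation antigen Ki-67, was at 110.1, 113 and 110.2 FPKM in the CD62L- libraries and 137, 137 and 138 FPKM in the CD62L+ libraries (log2 fold change 0.31 ± 0.0140 (SE), adjusted p = 3.61e-09), and Troap, a spindle protein gene, from 15.3 to 24.5 FPKM (log2 fold change 0.64 ± 0.0371 (SE), adjusted p = 2.85e-08).

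Genes of DNA replication and S phase, the stage before mitosis, had positive values that seldom reached the minimum fold. Of 53 tested, 3 rose (5.66%, near the 4.75% of all genes) and 0 fell, and their median log2 fold change was 0.13. Adjusted p alone was passed by 39 of the 53 upward and 1 downward, against 24.1% and 24.3% of all genes. Those that rose were Tk1, thymidine kinase, from 87.6 to 109 FPKM, E2f2, a transcription factor of S phase entry, from 29.0 to 36.3 FPKM, and Pold1, the catalytic subunit of DNA polymerase delta, from 48.4 to 60.3 FPKM. Adjusted for the GC content of transcripts, E2f2 and Pold1 were at 0.26 and 0.22, under the minimum fold. Mcm5, a subunit of the replicative helicase, was at 112, 111 and 111 FPKM in the CD62L- libraries and 123, 122 and 125 FPKM in the CD62L+ libraries, a log2 fold change of 0.15, and Mcm2, of the same helicase, was at 72.7 ± 1.32 FPKM in CD62L- cells and 68.7 ± 0.776 in CD62L+ cells (-0.08). Of 22 genes that control G1, 4 rose (18.2%, against 4.75% of all genes) and 1 fell (4.55%, against 2.44%). E2f7 and E2f8, repressors made late in S phase, rose at 0.34 and 0.39. The cyclin D kinase inhibitors Cdkn2c and Cdkn2d rose at 0.31 and 0.30, and Cdkn2b, of the same inhibitor family, fell at -0.46. After the same adjustment 2 of the 22 rose and 1 fell. Of 31 replication-dependent histone genes 3 rose (9.68%, against 4.75% of all genes) and 4 fell (12.9%, against 2.44%). Their levels were low, with a median of 0.89 FPKM in CD62L- cells and 0.96 FPKM in CD62L+ cells. Relative to the CD62L- mean, the list median was 0.11, 0.01 and -0.03 in the CD62L- libraries. In the CD62L+ libraries it was -0.05, 0.05 and 0.10. The fractions overlapped, so no shift of that list is read from these counts. H2afx, which encodes the histone variant H2A.X that is phosphorylated at DNA breaks, was outside that list and among the 15 highest genes, at 106, 109.7 and 108 FPKM in the CD62L- libraries and 186, 188 and 183 FPKM in the CD62L+ libraries (log2 fold change 0.78 ± 0.0297 (SE), adjusted p = 8.24e-10).

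The mitosis and S phase lists also ordered the 5 populations differently. The mean of the CD62L+ cells was the highest of the 5 for 77 of the 90 mitosis genes (85.6%), against 8.63% of all genes tested, and for 3 of the 53 S phase genes (5.66%). Relative to the cocktail CD44+CD62L- cells, mitosis genes had a median difference of 0.33 log2 units in the CD62L+ cells, 0.14 in the IL-2 cells, -1.19 in the CD44loCD62L+ cells and -3.99 in naive cells. For S phase genes the same medians were 0.13, 0.46, -0.81 and -2.19, so that the IL-2 cells stood highest. These medians share the CD62L- libraries as their reference and are given as levels. Cdk1 showed the pattern of many members, with 60.6 ± 0.242 FPKM in the IL-2 cells, next to the CD62L+ cells, 15.7 ± 0.195 in the CD44loCD62L+ cells and 0.432 ± 0.0950 in naive cells. Ccnb1 was an exception, highest in the IL-2 cells at 108 ± 0.689 FPKM.

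**Figure D2:**
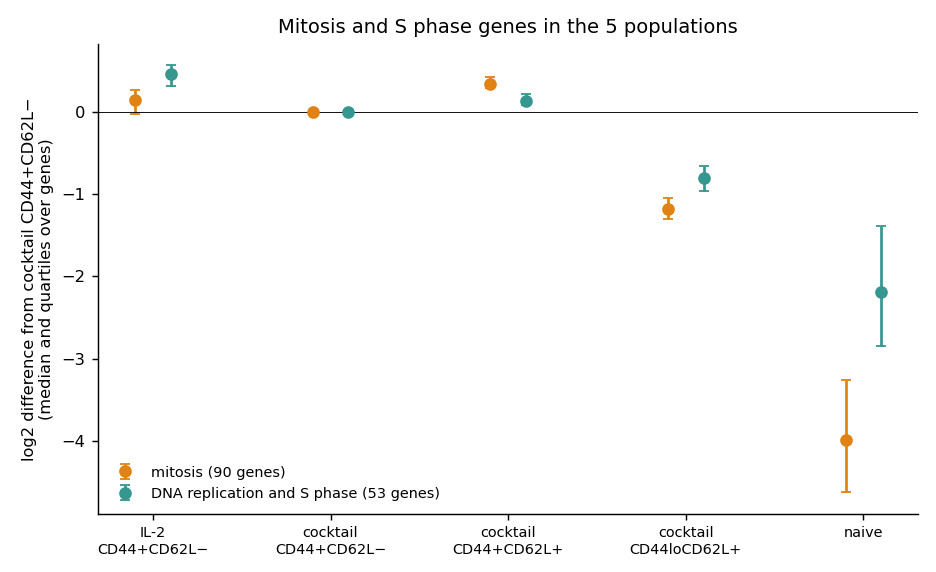
Median (point) and quartiles (bars) over genes of the difference from the cocktail CD44+CD62L- cells in log2(FPKM + 1), for 90 mitosis and 53 S phase genes in the 5 populations. Mitosis genes stand highest in the cocktail CD44+CD62L+ cells at 0.33 and S phase genes in the IL-2 cells at 0.46, and both lists are lowest in naive cells.

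Genes that mark naive and central memory T cells moved less evenly. Of 30 tested, 4 rose (13.3%, against 4.75% of all genes) and 1 fell (3.33%, against 2.44%), with a median log2 fold change of 0.11, which was 0.13 after the GC adjustment. Ccr7 (chromosome 11, 99144196 to 99155077), the chemokine receptor that guides T cells into lymph nodes beside CD62L, was at 46.5, 47.9 and 46.4 FPKM in the CD62L- libraries and 77.0, 75.1 and 76.3 FPKM in the CD62L+ libraries (log2 fold change 0.69 ± 0.0351 (SE), adjusted p = 8.84e-09). Dapl1 (chromosome 2, 59484653 to 59505020), a gene high in naive and early memory T cells, was at 47.7, 49.1 and 48.6 FPKM in the CD62L- libraries and 91.0, 85.9 and 87.8 FPKM in the CD62L+ libraries (log2 fold change 0.85 ± 0.0459 (SE), adjusted p = 1.48e-08). The ranges were far apart for both. Myb, a transcription factor of stem-like memory cells, went from 9.72 to 15.3 FPKM (log2 fold change 0.61), and S1pr1, the receptor with which T cells leave lymphoid organs, from 10.7 to 14.1 FPKM (0.37).

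The member that fell was Il7r (chromosome 15, 9505788 to 9530176), the IL-7 receptor alpha chain and a usual marker of memory cells. It was at 117, 116 and 115 FPKM in the CD62L- libraries and 82.7, 83.7 and 82.5 FPKM in the CD62L+ libraries (log2 fold change -0.47 ± 0.0146 (SE), adjusted p = 1.38e-10), without overlap of the fractions. Its level in the CD62L+ cells lay below that of the CD44loCD62L+ cells, 124 ± 0.257 FPKM, and of naive cells, 266 ± 3.96, and above that of the IL-2 cells, 32.3 ± 0.690. Ccr7 was lowest in the IL-2 cells and highest in naive cells, with 2.08 ± 0.209 FPKM in the IL-2 cells, 137 ± 1.29 in CD44loCD62L+ cells and 301 ± 0.275 in naive cells. Other transcription factors of this list than Myb were not called. Tcf7, which encodes TCF-1, was at 236, 237 and 240.0 FPKM in the CD62L- libraries and 249, 252 and 248 FPKM in the CD62L+ libraries (log2 fold change 0.07 ± 0.0394 (SE), adjusted p = 0.158). Lef1, Foxo1, Klf2 and Bach2 had log2 fold changes of 0.11, 0.12, 0.15 and 0.22, all past adjusted p and under the minimum fold, and Id3 was at 0.21 (adjusted p = 0.0587). The costimulatory receptor Cd27 went from 97.5 to 106 FPKM, and Bcl2, which protects memory cells from apoptosis, was at -0.17. Of 6 Wnt and beta-catenin target genes tested, 1 rose (16.7%, against 4.75% of all genes), Znrf3, at 0.30, and 0 fell (against 2.44%).

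**Figure D3:**
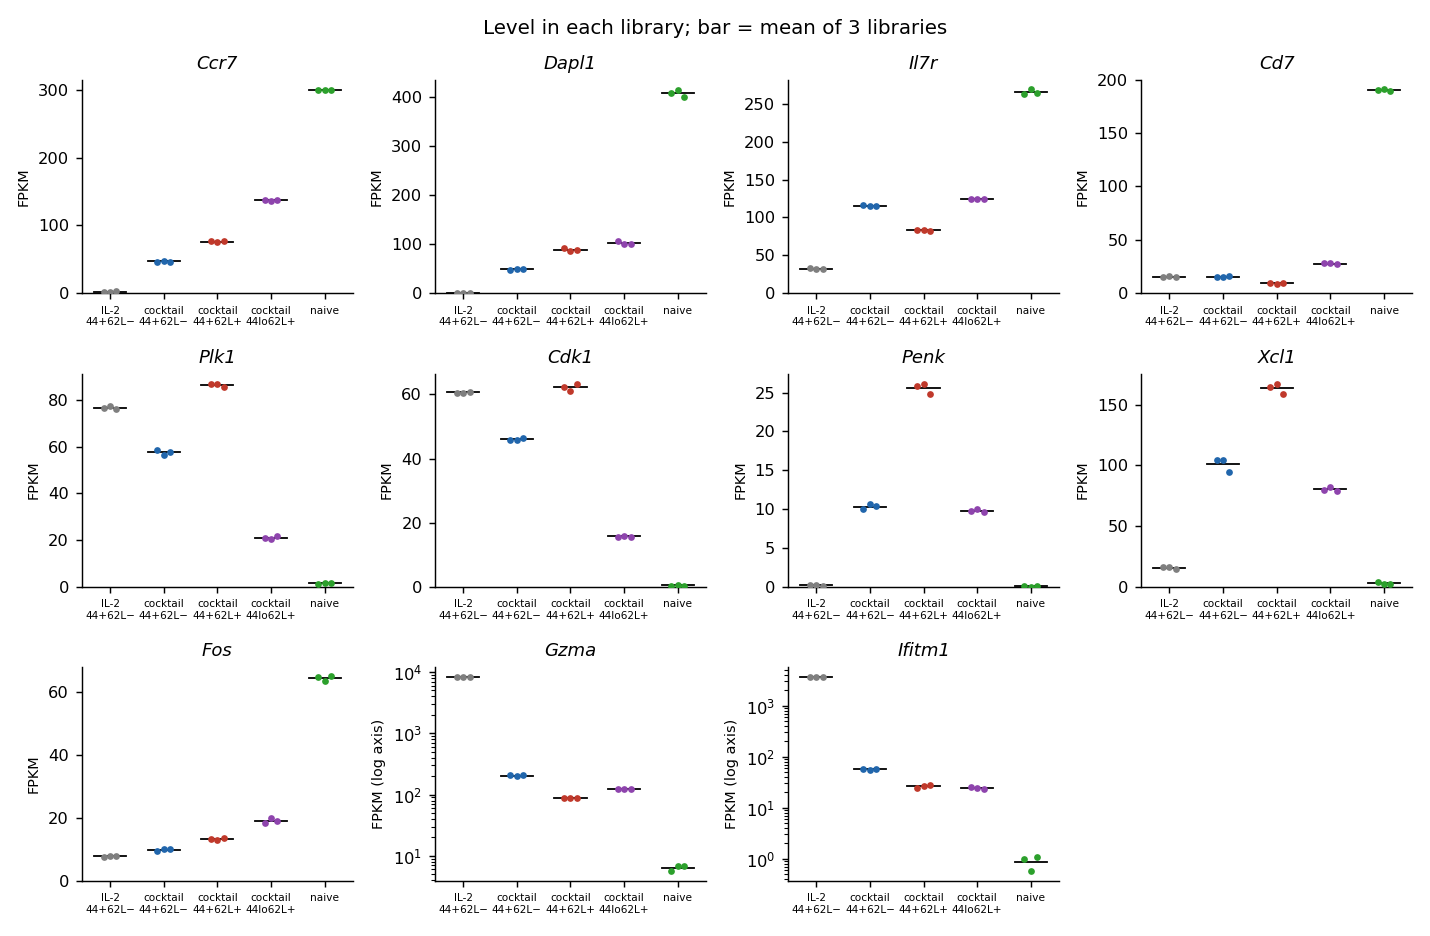
FPKM of 11 genes in each of the 15 libraries, 3 points per population with their mean as a bar; the axes of Gzma and Ifitm1 are logarithmic and the others start at 0. The 3 libraries of a population nearly coincide; Ccr7 and Dapl1 climb from the IL-2 cells to naive cells, Penk and Xcl1 are highest in the CD62L+ cells, and Il7r and Cd7 are lower there than in both other cocktail populations.

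Penk and Xcl1, which encode secreted products, were among the 15 highest genes. Penk (chromosome 4, 4133531 to 4138819), the precursor of the opioid peptides called enkephalins, was at 9.97, 10.7 and 10.4 FPKM in the CD62L- libraries and 25.8, 26.2 and 24.8 FPKM in the CD62L+ libraries (log2 fold change 1.23 ± 0.0393 (SE), adjusted p = 1.82e-10). It was listed at 9.80 ± 0.162 FPKM in CD44loCD62L+ cells, 0.189 ± 0.0598 in IL-2 cells and 0.0382 ± 0.0331 in naive cells, so that the CD62L+ fraction had the highest mean of the 5 populations. Xcl1 (chromosome 1, 164931644 to 164935527), a chemokine that attracts cross-presenting dendritic cells, was at 105, 104 and 94.7 FPKM in the CD62L- libraries and 164, 167 and 159 FPKM in the CD62L+ libraries (log2 fold change 0.69 ± 0.136 (SE), adjusted p = 0.00105), with no overlap but an SE above the median of 0.0326 over all genes. Of 23 secreted cytokines and chemokines tested, 3 rose (13.0%, against 4.75% of all genes) and 0 fell (against 2.44%). The third that rose was Tgfb1 at 0.27, and the median of the list was -0.05 where its mean was 0.03. Ifng, the interferon gamma gene, was at 6.25, 5.95 and 7.67 FPKM in the CD62L- libraries and 5.94, 7.09 and 5.78 FPKM in the CD62L+ libraries, with overlapping libraries (adjusted p = 0.519).

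Of 12 chemokine receptors tested, 3 rose (25%, against 4.75% of all genes) and 3 fell (25%, against 2.44%). Cxcr4, the receptor for the bone marrow and stromal chemokine CXCL12, went from 13.0 to 18.5 FPKM (0.48), and Cxcr5, the receptor for B cell follicles, was low in both, 0.366 to 0.652 FPKM. Cxcr6, a receptor of tissue-resident and effector cells, was at 150.4, 152 and 151 FPKM in the CD62L- libraries and 104, 107 and 109 FPKM in the CD62L+ libraries (log2 fold change -0.50 ± 0.0182 (SE), adjusted p = 5.67e-10), and Ccr1 and Ccr4 fell at -0.45 and -0.27 from low levels. The inflammatory receptors Ccr2 and Cxcr3 stayed under the minimum fold at -0.13 and -0.06. Among integrins and adhesion molecules, Ly6c2 rose, at 401, 403 and 405 FPKM in the CD62L- libraries and 623, 621 and 622 FPKM in the CD62L+ libraries, and Emb and Itga1, the alpha 1 integrin of tissue-resident cells, fell at -0.29 and -0.48. Ly6c2 shares much sequence with Ly6c1, which was at -0.19, so the division of reads between them is uncertain. Of 37 cytokine receptor and signalling genes, 1 rose (2.70%, against 4.75% of all genes) and 2 fell (5.41%, against 2.44%). Il10ra, the IL-10 receptor alpha chain, rose from 37.0 to 47.7 FPKM, and Il7r and Socs2 fell.

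Cytotoxic effector genes were lower where they changed, apart from 2 serpins. Of 34 effector genes tested, 7 fell (20.6%, against 2.44% of all genes) and 2 rose (5.88%, against 4.75%), with a median of -0.08. Gzma (chromosome 13, 113093825 to 113100981), encoding the protease granzyme A, was at 209, 199.9 and 206 FPKM in the CD62L- libraries and 88.6, 87.0 and 89.4 FPKM in the CD62L+ libraries (log2 fold change -1.20 ± 0.0422 (SE), adjusted p = 4.14e-10), with no overlap and a CD62L+ mean 0.431 times the CD62L- mean. Gzmc (chromosome 14, 56231441 to 56234656), granzyme C, was at 90.4, 91.2 and 89.2 FPKM in the CD62L- libraries and 48.2, 51.2 and 50.1 FPKM in the CD62L+ libraries (log2 fold change -0.84 ± 0.0309 (SE), adjusted p = 5.67e-10). Its neighbours in the same gene cluster, Gzmd and Gzme, fell at -0.54 and -0.53 from levels near 1 FPKM, and as near-identical genes they can share reads. Gzmb, granzyme B and the most abundant of the family, was at 1385, 1371 and 1366 FPKM in the CD62L- libraries and 1158, 1152 and 1151 FPKM in the CD62L+ libraries, a log2 fold change of -0.25 just under the minimum fold. In the IL-2 libraries Gzmb is listed at 0, as Eef1a1, a translation factor gene that every cell uses, is in all 6 libraries compared here, so a listed 0 can be a failed estimate. Prf1, encoding perforin, and Gzmk, granzyme K, had overlapping libraries (0.07 and -0.01).

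The other effector genes that fell were Lgals3, the lectin galectin-3, from 119.6 to 75.1 FPKM, S100a4, a calcium-binding protein of effector cells, from 264 to 187 FPKM, and Srgn, the granule proteoglycan serglycin, from 579 to 460.4 FPKM. The serpins that rose were Serpinb9, an inhibitor of granzyme B, from 22.8 to 28.3 FPKM, and its relative Serpinb6b from 40.9 to 57.3 FPKM. The IL-2 cells lay far above both cocktail fractions for Gzma, at 8244 ± 42.0 FPKM, and for S100a4, at 2024 ± 24.4. Of 14 NK-type receptors tested, 4 fell (28.6%, against 2.44% of all genes) and 0 rose (against 4.75%). Klra5, a Ly49 receptor gene of a near-identical family, was at 16.9, 16.6 and 16.5 FPKM in the CD62L- libraries and 7.33, 7.91 and 6.96 FPKM in the CD62L+ libraries (log2 fold change -1.07 ± 0.0569 (SE), adjusted p = 1.23e-08), and Cd160, Cd244 and Fcer1g fell at -0.35, -0.33 and -0.46. Klrk1, which encodes NKG2D, was at 0.01 (adjusted p = 0.747). With a pseudocount of 5 in place of 1, 2 of the 14 fell.

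Inhibitory receptors, which restrain activated T cells, fell in 6 of 16 cases (37.5%, against 2.44% of all genes) and rose in 1 (6.25%, against 4.75%). Cd200r1 was at 23.9, 23.6 and 23.5 FPKM in the CD62L- libraries and 15.5, 16.1 and 15.8 FPKM in the CD62L+ libraries (log2 fold change -0.55 ± 0.0250 (SE), adjusted p = 3.36e-09). Pdcd1, which encodes PD-1, was at 32.3 ± 0.536 FPKM in CD62L- cells and 25.6 ± 1.26 in CD62L+ cells (log2 fold change -0.32), and Havcr2, encoding TIM-3, at 9.32 ± 0.148 FPKM in CD62L- cells and 7.44 ± 0.490 in CD62L+ cells (-0.29). Entpd1, encoding CD39, Cd160 and Cd244 were the others, the last 2 also counted among the NK-type receptors. Cd5, a brake on T cell receptor signals, rose from 35.0 to 44.3 FPKM. With a pseudocount of 5, 3 of the 16 fell. Of 31 transcription factors of T cell fate, 1 rose (3.23%, against 4.75% of all genes) and 2 fell (6.45%, against 2.44%). Eomes, a factor of memory and cytotoxic cells, was at 28.1 ± 0.172 FPKM in CD62L- cells and 35.2 ± 0.963 in CD62L+ cells (0.32), and Batf3 and Rora fell at -0.28 and -0.48. Tbx21 (T-bet), Prdm1 (Blimp-1), Zeb2 and Id2, factors of terminal effector cells, were at 0.15, -0.12, -0.10 and -0.07, none past the minimum fold.

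Immediate early genes, which are induced within minutes of receptor signals or of handling, rose in 10 of 35 cases (28.6%, against 4.75% of all genes) and fell in 0, with a median of 0.16. Fos was at 9.46, 9.98 and 10.1 FPKM in the CD62L- libraries and 13.1, 12.9 and 13.7 FPKM in the CD62L+ libraries (log2 fold change 0.39 ± 0.0292 (SE), adjusted p = 2.68e-07) and Egr1 at 10.3, 10.02 and 10.4 FPKM in the CD62L- libraries and 13.1, 13.5 and 13.2 FPKM in the CD62L+ libraries. Nr4a1, a reporter of T cell receptor signals, went from 3.15 to 4.38 FPKM, and Egr2, Egr3, Fosb, Dusp1, Dusp4, Klf4 and Nfkbid were the other members that rose, with log2 fold changes of 0.28 to 0.44. Jun and Dusp5 had negative values under the minimum fold (-0.13 and -0.14). With a pseudocount of 5 in place of 1, which damps low genes, 4 of the 35 rose. After GC adjustment 10 rose, and the median was 0.11.

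Genes of the type I interferon response fell in 9 of 57 cases (15.8%, against 2.44% of all genes) and rose in 0, with a median of -0.15. Ifitm1 (chromosome 7, 140967221 to 140969825), an interferon-induced membrane protein that blocks virus entry, was at 58.2, 56.0 and 57.8 FPKM in the CD62L- libraries and 24.3, 27.0 and 27.5 FPKM in the CD62L+ libraries (log2 fold change -1.10 ± 0.0790 (SE), adjusted p = 2.03e-07). Its neighbours and relatives Ifitm2 and Ifitm3 fell from 127 to 86.3 FPKM and from 26.4 to 21.1 FPKM. Ifit1 was at 37.0, 36.8 and 36.4 FPKM in the CD62L- libraries and 26.6, 25.8 and 26.5 FPKM in the CD62L+ libraries (log2 fold change -0.47 ± 0.0156 (SE), adjusted p = 2.43e-10), and Ifit3, Slfn5, Gbp2, Gbp6 and Tgtp2 fell at log2 fold changes of -0.42, -0.42, -0.27, -0.35 and -0.27. Gbp11, of the same GTPase family, was among the 15 lowest genes, from 39.6 to 26.8 FPKM. Mx1 and Ifi27l2a had positive values under the minimum fold, 0.10 and 0.16. After GC adjustment 7 fell, and the median was -0.11.

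**Figure D4:**
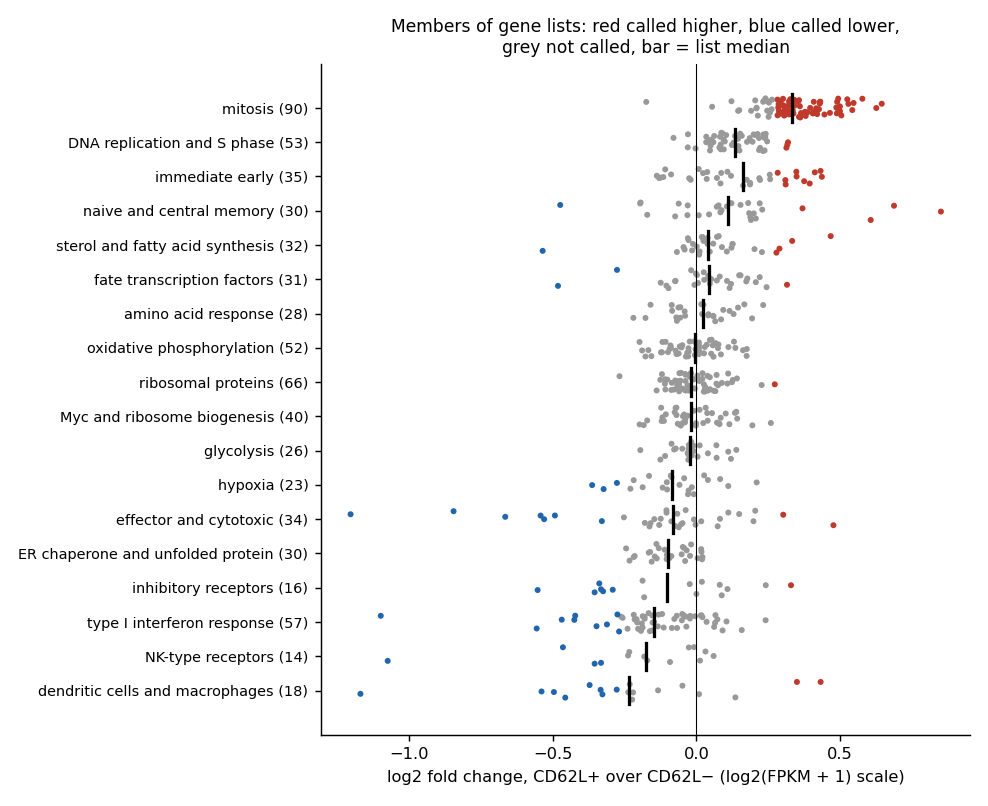
Log2 fold change of each tested member of 18 gene lists, 1 point per gene, with the number of members in brackets and the list median as a bar; red points rose, blue points fell and grey points were not called. The mitosis list lies almost wholly to the right with a median of 0.33, while the interferon, inhibitory receptor and NK-type receptor lists have tails of members that fell and the lists of metabolism and ribosomes stay around 0.

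Most of the metabolic lists held no called gene. Of 26 glycolysis genes, 52 of oxidative phosphorylation, 28 of the amino acid response, 30 of endoplasmic reticulum chaperones and 40 of Myc targets and ribosome biogenesis, 0 were called in either direction, with medians of -0.02, -0.01, 0.02, -0.10 and -0.02. At adjusted p alone limma placed 3 higher and 11 lower for glycolysis, 15 and 15 for oxidative phosphorylation, 9 and 5 for the amino acid response, 0 and 18 for the chaperones and 11 and 14 for Myc targets. Over all genes tested, adjusted p alone placed 24.1% higher and 24.3% lower. Myc itself was at 69.9 ± 1.53 FPKM in CD62L- cells and 71.7 ± 0.950 in CD62L+ cells (0.04). Of 66 ribosomal protein genes 1 rose (1.52%, against 4.75% of all genes), Rps16, at 0.27. Of 23 hypoxia genes 3 fell (13.0%, against 2.44% of all genes), Ndrg1, P4ha2 and Plod2, the last 2 being enzymes of collagen modification. Of 32 sterol and fatty acid genes 4 rose (12.5%, against 4.75% of all genes) and 1 fell (3.12%, against 2.44%), and after GC adjustment 2 rose and 1 fell. The desaturase gene Fads2 went from 4.84 to 7.07 FPKM, and Acat2, an enzyme at the start of cholesterol synthesis, from 20.6 to 13.9 FPKM.

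Among T cell identity genes, 1 of 26 rose, Cd5 (3.85%, against 4.75% of all genes), and 3 fell (11.5%, against 2.44%). Cd7 (chromosome 11, 121036747 to 121039418), a surface glycoprotein high in naive cells, was at 15.04, 15.2 and 15.6 FPKM in the CD62L- libraries and 9.44, 8.32 and 9.54 FPKM in the CD62L+ libraries (log2 fold change -0.69 ± 0.0437 (SE), adjusted p = 6.86e-08), against 27.6 ± 0.682 FPKM in CD44loCD62L+ and 190.2 ± 0.731 in naive cells. Trat1, an adaptor of the T cell receptor complex, went from 7.57 to 3.87 FPKM, and Cd8a from 342 to 278 FPKM (-0.30). Both fractions had the transcripts of CD8 T cells, with Cd3e at 261 ± 2.61 FPKM in CD62L- cells and 253 ± 2.67 in CD62L+ cells. Cd4 did not exceed 0.0335 FPKM in any of the 6 libraries. The list of 8 markers of CD4 and regulatory T cells that holds Cd4 summed to 121 to 124 FPKM in CD62L- and 120 to 123 FPKM in CD62L+ libraries. Of these 8 markers, 4 reached 1 FPKM in a fraction. Cd4 and Foxp3 were not among them and give little of the sum. Foxp3 had means of 0.0772 FPKM in CD62L- and 0.0180 FPKM in CD62L+ cells. The 13 B cell markers summed to 3.34 to 3.64 FPKM in CD62L- and 3.63 to 3.86 FPKM in CD62L+ libraries, with Ms4a1 and Pax5 at 0. Among the genes with the highest fold changes that belong to none of the lists were Tnfrsf4, the costimulatory receptor OX40, from 16.8 to 27.7 FPKM, Zfpm1, a cofactor of GATA factors also called FOG1, from 14.7 to 24.5 FPKM, Mxd3, a partner of MAX expressed in dividing cells, from 40.4 to 65.4 FPKM, and Ankle1, Arhgap33 and Samd3 at 0.74, 0.72 and 0.62. Among the lowest were Nov, a secreted matricellular protein, from 14.1 to 7.99 FPKM, the membrane protein genes Tmem176a and Tmem176b at -0.79 and -0.60, and Ly6g5b at -0.65.

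The culture was started with dendritic cells, and markers of dendritic cells and macrophages differed between the fractions beside the lower effector, NK-type and interferon genes. Of 18 such markers tested, 8 fell (44.4%, against 2.44% of all genes) and 2 rose (11.1%, against 4.75%), with a median of -0.23. The summed level of all 32 markers in the table was 334 to 341 FPKM in the CD62L- libraries and 298 to 308 FPKM in the CD62L+ libraries. Most of it came from Cst3, at 146 and 141 FPKM in CD62L- and CD62L+ cells, and Ctss, at 91.1 and 72.1 FPKM. Ctss was higher still in the uncultured naive cells, at 144 FPKM, where Cst3 was at 64.2 FPKM and Lyz2 at 8.22 FPKM. Lyz2, lysozyme of myeloid cells, was at 21.8, 21.6 and 20.5 FPKM in the CD62L- libraries and 14.1, 15.7 and 14.7 FPKM in the CD62L+ libraries, Clec12a, a myeloid lectin, at 7.22, 7.46 and 8.04 FPKM in the CD62L- libraries and 2.73, 2.78 and 2.92 FPKM in the CD62L+ libraries, and the complement genes C1qa, C1qb and C1qc fell from means of 0.614, 1.98 and 1.24 FPKM. The class II genes H2-Ab1 and Cd74 were the 2 that rose, from 13.7 to 17.6 FPKM and 12.5 to 17.2 FPKM. The dendritic cell markers Clec9a and Cd209a were at 0 in all 6 libraries. The part of these markers in the lower effector, NK-type and interferon genes was not tested. With a pseudocount of 5, 3 of the markers fell, and when genes below 5 FPKM in all populations were left out 4 did. Markers of NK cells summed to 33.0 to 36.3 FPKM in the CD62L- libraries and 39.6 to 40.4 FPKM in the CD62L+ libraries, most of it from Eomes, the list's risen member, at 28.1 ± 0.172 FPKM in CD62L- cells and 35.2 ± 0.963 in CD62L+ cells. Of other marker lists, Fcer1g and Fcgr3 of the NK cell list, Cd40lg of the CD4 list and Pf4, a platelet gene at 1.27 ± 0.311 FPKM in CD62L- cells and 0.411 ± 0.0834 in CD62L+ cells, fell.

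Measures of library composition were compared as well. Only GC content was adjusted for, and the part of these measures in the other differences was not tested. The ribosomal RNA precursor Rn45s was at 302, 300.3 and 303 FPKM in the CD62L- libraries and 216, 214 and 213 FPKM in the CD62L+ libraries, and Lars2, for a mitochondrial leucyl-tRNA synthetase, at 270.2, 275 and 275 FPKM in the CD62L- libraries and 158, 159 and 158 FPKM in the CD62L+ libraries (log2 fold change -0.78 ± 0.00774 (SE), adjusted p = 8.48e-16). Small RNA genes held 6.63% to 7.50% of the FPKM sum in CD62L- libraries and 4.86% to 7.14% in CD62L+ libraries, which overlap. The fold change also followed transcript GC content, with a Spearman correlation across 11127 genes of 0.33, given as a description since genes are not independent. Between single libraries of the 2 fractions it was 0.28 to 0.32 in all 9 pairs, while within a fraction its size was 0.027 to 0.066 over 6 pairs. The same measure was -0.01 for naive against IL-2 cells and -0.02 for CD44loCD62L+ against CD62L+ cells. The median fold change climbed from -0.07 in the tenth of genes with the lowest GC to 0.08 in the tenth with the highest, and the share of genes that rose from 1.89% to 8.81%.

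The trend with GC content was then removed by subtracting a smooth curve of each library's deviation on GC, an alternative added after the data were seen. Such a curve takes out every difference that follows GC, whatever its source. The adjustment left 496 higher (4.46%) and 240 lower genes (2.16%) of 11127, 736 in all (6.61%). Of the 534 genes that rose 412, and of the 274 that fell 207, were called in the same direction. Mitosis genes had a median GC of 46.6% against 49.5% of all genes, and after the adjustment 80 of the 90 rose, with a median of 0.36. Counts of 7 fallen effector, 4 NK-type and 8 dendritic cell and macrophage genes were the same after it, and inhibitory receptors fell in 5 cases. The list medians changed from -0.18 to -0.11 for NK-type and from -0.08 to -0.06 for effector genes. They changed from -0.23 to -0.24 for dendritic cell and macrophage markers and from -0.10 to -0.11 for inhibitory receptors. Single genes were also followed through the adjustment. Ccr7, Dapl1, Penk, Xcl1, Gzma, Ifitm1 and Il7r were at 0.66, 0.88, 1.21, 0.72, -1.16, -1.10 and -0.41. Of the genes named here, Tgfb1, Emb, Socs2, Ccr4, Cxcr5, Cdkn2c, Cdkn2d, Dusp4, Plod2, E2f2, Pold1, Havcr2, Gbp2 and Tgtp2 were no longer called after it.

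**Figure D5:**
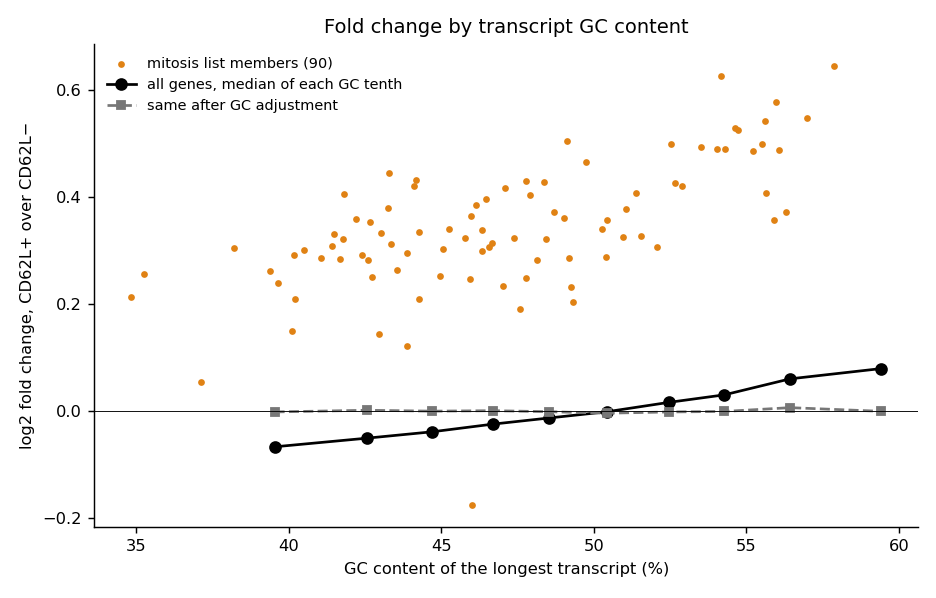
GC content of the longest annotated transcript against the log2 fold change of CD62L+ over CD62L- cells; black points are medians of all genes in 10 bins of GC content, grey squares the same after GC adjustment and orange points the 90 mitosis genes. Black points climb from -0.07 to 0.08, grey squares stay near 0, and all mitosis genes but Pttg1 lie above 0 at every GC content.

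Another CD62L+ and CD62L- pair of the series that shares no library with this one is naive against IL-2 cells, which differ also in culture and in CD44. That comparison called most genes, 37.4% of those tested higher and 39.5% lower in naive cells. Of the 534 genes that rose with the gate, 143 (26.8%) were higher in naive cells and 326 (61.0%) lower. Of the 274 that fell, 71 (25.9%) were higher in naive cells and 165 (60.2%) lower. The 143 shared higher genes were 3.41% of all genes higher in naive cells, and the 165 shared lower genes 3.72% of those lower. Of the 808 called genes 365 had the same sign in both comparisons (45.2%), given without an interval since genes are not independent. The same share was not taken over all genes tested, so this value has no background beside it and is a description only. Without the mitosis and S phase lists, 31.0% of the risen genes were higher and 54.9% lower in naive cells, against 37.8% and 38.7% of all genes tested outside these lists. The Spearman correlation of the 2 fold changes across all genes was -0.02, and 0.005 without these lists. Ccr7, Dapl1 and S1pr1 were higher in naive cells and Gzma, Gzmc, Lgals3 and Cxcr6 lower, in the direction of the gate, whereas Il7r, Cd7 and Trat1 were higher in naive cells and Myb, Xcl1, Plk1 and Cdk1 lower, against it. Penk, near 0 in both, was not called in that comparison.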

How the data were processed

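The authors deposited normalized FPKM per gene for 15 RNA-seq libraries; TopHat2 2.0.9 and Cuffdiff 2.1.1 are named, per the submitters' processing notes, with the mm10 build, while the sources used here give neither annotation nor strand setting. Of 23284 entries, 6039 are at 0 in every library. The 11242 genes whose mean reached 1 FPKM in 1 or more of the 5 populations were tested. log2(FPKM + 1) was fitted by population over all 15 libraries with limma 3.58.1 in R 4.3.3, with a variance trend, so that all populations share 1 estimate of spread. With 3 libraries a group, an exact permutation test of a single gene cannot go under a two-sided p of 0.1. Calls need adjusted p under 0.05 and 1.2-fold. On simulated data of 11242 genes with normally distributed noise, 49 of 50 genes changed 1.3-fold and 2 of 11042 unchanged genes were called. Of 50 genes changed 1.1-fold, which is under the minimum fold, 24 passed adjusted p and 0 were called. The noise was that between libraries of a population, with no GC trend between the fractions. The 2 of 11042 are therefore not the rate of false calls in the real data. The changed genes were drawn only from those of at least 5 FPKM in CD62L- cells, without small RNAs. Recovery of changed genes of lower level was not simulated. Named genes are the 15 highest and 15 lowest called genes of at least 10 FPKM with no overlap, without predicted genes, small RNAs and receptor segments, the 3 highest and 3 lowest members of each list of at least 5 FPKM, and a fixed set; further called members were named after their values were seen. Members and lists were chosen with earlier results of these data known. Positions are of GENCODE vM21 on GRCm38, promoters of RefSeq. Alternatives were other pseudocounts, filters, scalings and minimum folds, the 6 libraries alone, no variance trend, a replicate block, leaving out each library and, added after the data were seen, GC adjustment and leaving out small RNA genes or genes listed at 0 throughout a population. Some genes are not reported here.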

Additional observations from a re-analysis of the deposited data

How the results depend on the processing

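The values are FPKM with no counts, so no counting interval can be given, and the libraries of a fraction are technical replicates, so differences between mice or cultures are not covered. Fold sizes near 1.2 rest on the pseudocount. With a pseudocount of 5 in place of 1, 331 genes were called in place of 808, 240 of them higher in place of 534 and 91 lower in place of 274, and with one of 0.1, 1109 were called, 724 higher and 385 lower. Without a minimum fold 5432 were called and at 1.5-fold 71. The 13 genes called at 2-fold were 41 with a pseudocount of 0.1, 7 with one of 5 and 7 without small RNA genes. The share of called genes with the same sign in naive against IL-2 cells has no share over all genes beside it. It was 45.2%, and 41.6% with a filter at 5 FPKM and 36.6% with a pseudocount of 5. The fit of 6 libraries cannot give it. The causes were not tested. Leaving out 1 library at a time gave 809 to 833 called genes, 535 to 548 higher and 267 to 288 lower, 13 to 16 at 2-fold, 70 to 72 risen mitosis genes and a shared sign of 44.4% to 46.2%. Risen mitosis genes ranged from 59 to 80 over the alternatives run for that count, which left the minimum fold as it was. By adjusted p alone 88 were higher, against 24.1% of all genes. Of the 186 genes named by the rule, 78 were called; all 78 kept their direction and 63 their call in each of the 18 alternatives that tested them. GC adjustment and the 2 reduced gene sets were chosen after seeing the data.

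Replicate numbers do not pair the libraries by any label, and the correlations of same-numbered libraries' deviations were 0.019, 0.178 and 0.013. With the replicate number as a block, 807 genes were called, 535 higher and 272 lower, 13 at 2-fold, 70 mitosis genes rose and the shared sign was 45.1%.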
